A study of Homo sapiens with 6 samples.

Results

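The 32 genes described here make cholesterol and fatty acids, carry or export sterols, or control that supply, and they were listed by their roles in the pathway driven by the sterol regulatory element binding proteins. Each was found by its gene identifier among the 57905 identifiers of the files, and 31 of the 32 were abundant enough to be among the 14578 genes tested. Total RNA of U87, an established human glioma cell line grown in DMEM with serum, was sequenced in 6 libraries. The 3 libraries labelled siRBM47 came from cells lipofected with 100 pmol of an siRNA that targets RBM47, which encodes an RNA-binding protein. The 3 libraries labelled control carry the treatment label "no" and the genotype label WT. One transfection protocol is attached to all 6 samples, and the labels do not say whether or with what the control cells were transfected, so an effect of transfection and one of the siRNA cannot be told apart. Nor do they state that each replicate was a culture of its own, so the p-values reflect only library-to-library spread, part or all of which may be technical. A level in CPM is the count scaled to a common library size, and log2 differences are siRBM47 minus control unless another pair is named.

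Animal cells build cholesterol from acetyl-CoA through mevalonate, farnesyl diphosphate, squalene and lanosterol. The enzymes are controlled together: when membrane sterol is low, SCAP carries the membrane-bound proteins encoded by SREBF1 and SREBF2 from the endoplasmic reticulum to the Golgi, where proteases release their DNA-binding part. When sterol is plentiful, INSIG proteins hold SCAP back, while oxysterols activate the liver X receptors, which raise the efflux pump ABCA1 and the ubiquitin ligase MYLIP. Brain makes nearly all of its own cholesterol, since lipoproteins of the blood do not cross into it.

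RBM47 itself was not lower in the libraries labelled siRBM47. It stood at 3.54, 2.74 and 2.23 CPM in siRBM47 replicates 1 to 3, against 1.62, 1.73 and 5.75 CPM in control replicates 1 to 3, so the groups overlapped and control replicate 3 was the highest library. Total counts ran from 17580111 to 17881310 in siRBM47 libraries and from 15575297 to 18128549 in control libraries. Across the tested genes, log2 levels correlated at 0.98 to 0.99 among the siRBM47 libraries and at 0.99 between control replicates 1 and 2. Control replicate 3 correlated at 0.95 and 0.96 with the other two controls and at 0.96 to 0.97 with the siRBM47 libraries. Controls 1 and 2 correlated at 0.955 to 0.972 with the siRBM47 libraries. Control replicate 3 was closer than either of them to siRBM47 replicate 1, at 0.9623, and to siRBM47 replicate 3, at 0.968. It was less close than either to siRBM47 replicate 2, at 0.965 against 0.9692 and 0.972. Of 8 glioma and astrocyte markers, 5 were abundant enough to be tested. VIM was at 2831 to 4939 CPM over the 6 libraries and NES at 13.1 to 15.2 CPM. OLIG2 was at 3.26 to 4.58 CPM in siRBM47 and 5.96 to 8.41 CPM in control libraries, so its groups did not overlap. SOX2 and GFAP were low, and GFAP did not exceed 1.49 CPM. S100B did not exceed 0.387 CPM, ALDH1L1 did not exceed 0.135 CPM and AQP4 was at 0 in every library. Marker sums of immune cells and adipocytes did not exceed 0.884 CPM in any library. Marker sums of neurons were 17.6 to 29.4 CPM in siRBM47 and 12.6 to 17.03 CPM in control libraries, nearly all of it SNAP25, with RBFOX3 at most 0.403 CPM. Those of endothelial cells were 5.03 to 6.51 CPM in siRBM47 and 8.04 to 14.8 CPM in control libraries, nearly all of it KDR, with CDH5 at or near 0. Epithelial sums were 21.7 to 27.6 CPM in siRBM47 and 18.6 to 38.5 CPM in control libraries, and hepatocyte sums were at most 0.460 CPM except for 11.3 CPM in control replicate 1. The part of these markers in the results was not tested. Because control replicate 3 stands apart from its group, the differences below are given with it and, where that bears on them, without it. RBM47 and these correlations leave it in doubt whether every library carries the right label; the labels are used as given, and each difference below is between the groups as labelled. The fit without control replicate 3 rests on controls 1 and 2, which are the most alike pair of libraries.

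On median, these genes were low in control replicates 1 and 2, intermediate in all 3 siRBM47 libraries, and high in control replicate 3. The median deviation of the 31 genes from their own mean, on the log2(CPM + 0.5) scale, was 0.15, 0.15 and 0.16 in siRBM47 replicates 1 to 3, and -0.35, -0.33 and 0.33 in control replicates 1 to 3. The same median over all 14578 genes lay between -0.004283 and 0.01398 in every library. Against the mean of controls 1 and 2, the median gene of the 31 stood 0.58 higher in siRBM47 libraries and 0.60 higher in control replicate 3, where the median of all genes was 0.01 in both. Control replicate 3 exceeded both other controls for 23 of the 31, or 74.2%, against 44.9% of all tested genes. The 3 siRBM47 libraries all exceeded controls 1 and 2 for 19 of the 31, or 61.3%, against 27.1% of all tested genes. For 12 of the 31 the highest library of the 6 was control replicate 3, or 38.7%, against 25.4% of all tested genes. The lowest was control replicate 1 for 11 genes and control replicate 2 for 12, where they were lowest for 19.6% and 13.3% of all tested genes.

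**Figure D1:**
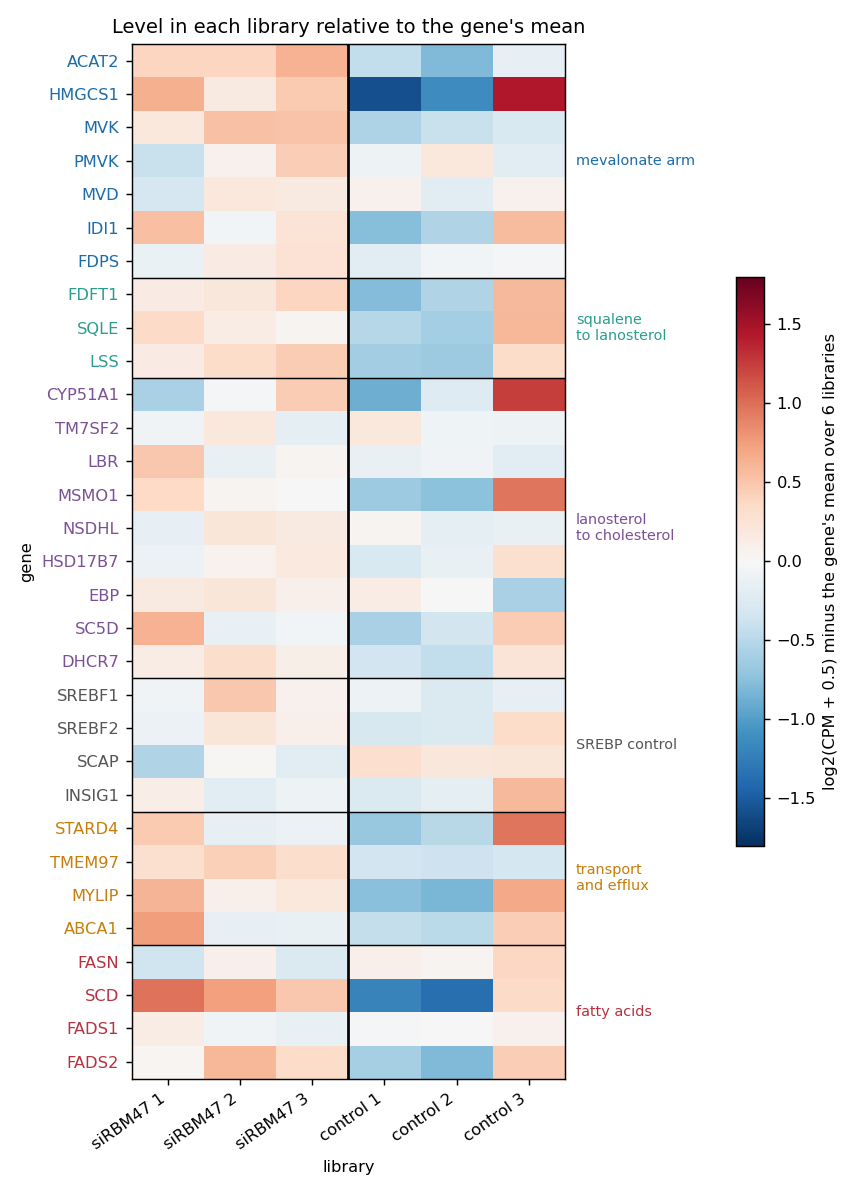
Heat map of the 31 tested genes (lines, grouped by role) in the 6 libraries (columns, siRBM47 left of control); colour is log2(CPM + 0.5) minus the gene's mean over the 6 libraries. Control replicates 1 and 2 are mostly blue, with medians of -0.35 and -0.33, while control replicate 3 is mostly red, with a median of 0.33, beside siRBM47 medians of 0.15 to 0.16.

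With all 6 libraries, 0 of the 31 genes passed the edgeR quasi-likelihood test at an adjusted p of 0.05 in either direction. The background was as thin: 12 of all 14578 genes, or 0.0823%, were called higher and 20, or 0.137%, were called lower. At an unadjusted p under 0.05, 4 of the 31 were higher (ACAT2, MVK, TMEM97 and SCD) and 1 was lower (SCAP), where 7.15% of all tested genes were higher and 8.94% lower. DESeq2 called those 4 higher, where 1.83% of its genes were called higher, and edgeR with no filter on low counts called ACAT2, MVK and SCD among 32, against 1.2% of its genes. Over all alternatives the adjusted p of these 4 ranged from 8.155e-06 to 0.472. The median log2 difference was 0.25 over the 31 genes and -0.01 over all tested genes, with 24 of the 31 and 48.8% of all genes above 0. Without control replicate 3, edgeR called 14 of the 31 higher and 0 lower, while 10.1% of all genes were called higher and 11.3% lower. The median over the 31 was then 0.69, against 0.02 over all genes. Over the other alternatives the adjusted p of these 14 genes ranged from 9.6e-06 to 0.9973, and ACAT2, MVK, TMEM97 and SCD were the only ones of them called under another alternative. The groups were separate, with every siRBM47 library above every control library, for 5 of the 31 (ACAT2, MVK, SREBF1, TMEM97 and SCD), and this held for 11.6% of all tested genes. SCAP alone among the 31 had every siRBM47 library below every control library, which held for 11% of all tested genes.

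**Figure D2:**
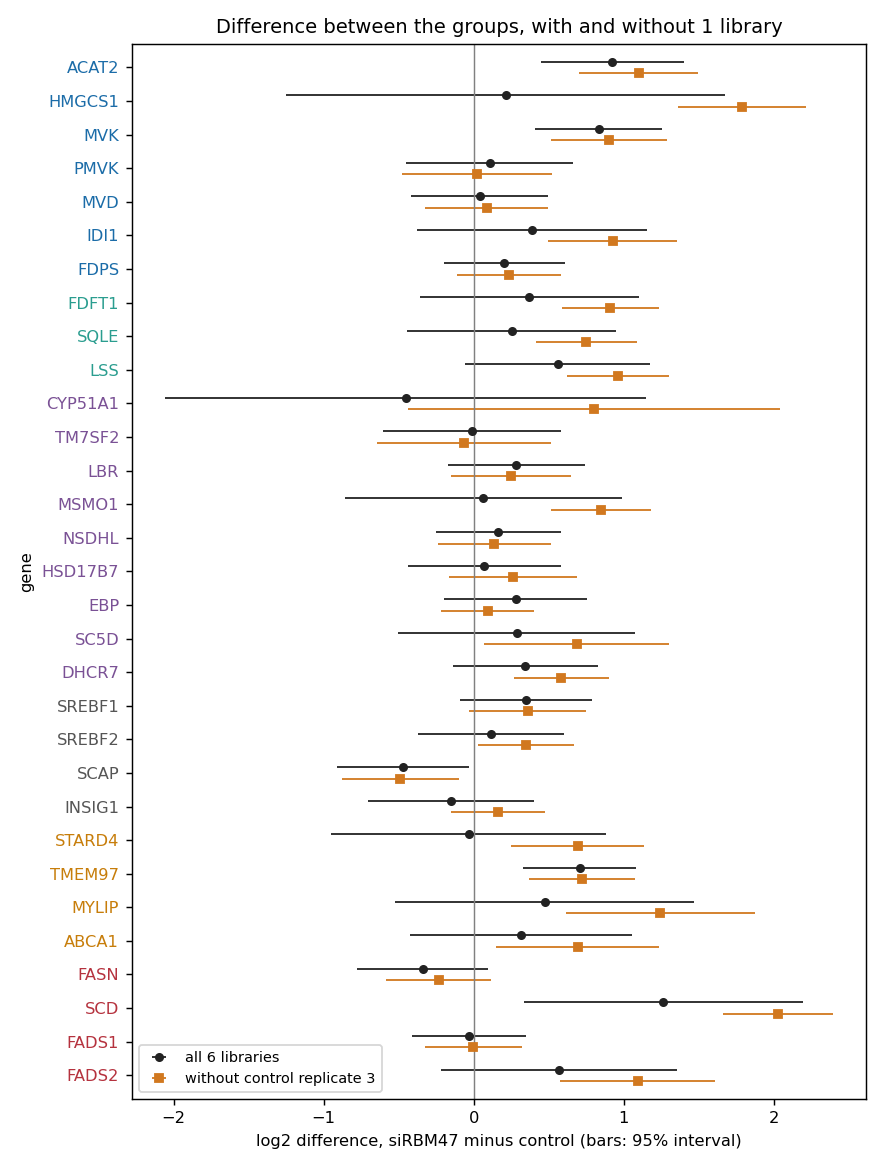
Log2 difference, siRBM47 minus control, of the 31 tested genes (horizontal axis) by edgeR with 95% intervals; circles use all 6 libraries and squares leave out control replicate 3. HMGCS1 moves most, with 0.21 in all libraries and 1.79 without that control, while TMEM97, MVK and SCAP hardly move.

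The promoters of the genes were read from RefSeq (GRCh38.p14), 250 bases before to 50 after the start, and 27 of the 32 genes had an entry. They were searched on both strands for the sterol regulatory element TCACNCCAC, which the processed proteins bind, for the CCAAT box (CCAAT, bound by NF-Y, their usual partner), for the GC box (GGGCGG, bound by Sp1) and for the E-box CACGTG. The CCAAT box was present in 20 of the 27 genes, or 74.1%, against 43.4% of the tested genes with a promoter and 39.7% of all genes in the table. The GC box was present in 25, or 92.6%, against 76.1% of tested genes, and the E-box in 5, or 18.5%, against 12.5%. The exact sterol regulatory element was present in SREBF2 only, that is 3.7% of the 27, against 1.47% of tested genes, and it began 133 bases before the start. None of the matches in these promoters overlapped a match to another of the 4 motifs. SREBF2 is shown because it holds that element. HMGCS1 and SCD, chosen after their values were seen, are shown because they differed most between control replicates and between groups, and neither holds the exact element in this window. Capitals mark the sterol regulatory element and the CCAAT boxes (ATTGG where the box lies on the other strand), each sequence running 5′ to 3′ on the gene's strand.
SREBF2, chr22:41832855-41833154, plus strand: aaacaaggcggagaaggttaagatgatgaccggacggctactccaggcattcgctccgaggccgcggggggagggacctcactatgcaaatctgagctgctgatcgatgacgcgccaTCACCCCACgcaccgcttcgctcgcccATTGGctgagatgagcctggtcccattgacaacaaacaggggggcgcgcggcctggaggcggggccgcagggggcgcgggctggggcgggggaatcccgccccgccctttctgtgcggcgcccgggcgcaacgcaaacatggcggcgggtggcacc
HMGCS1, chr5:43313363-43313662, minus strand: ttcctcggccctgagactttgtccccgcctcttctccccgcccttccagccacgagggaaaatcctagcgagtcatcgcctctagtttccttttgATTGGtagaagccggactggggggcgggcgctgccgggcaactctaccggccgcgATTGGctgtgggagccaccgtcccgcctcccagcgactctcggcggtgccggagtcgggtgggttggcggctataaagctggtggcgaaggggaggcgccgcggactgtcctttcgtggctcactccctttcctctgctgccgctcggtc
SCD, chr10:100346983-100347282, plus strand: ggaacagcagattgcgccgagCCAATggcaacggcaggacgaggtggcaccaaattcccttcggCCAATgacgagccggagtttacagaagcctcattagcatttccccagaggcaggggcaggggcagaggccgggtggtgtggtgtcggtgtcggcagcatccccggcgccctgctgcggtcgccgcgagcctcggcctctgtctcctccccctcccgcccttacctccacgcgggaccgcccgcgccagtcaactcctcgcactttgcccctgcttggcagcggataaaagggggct
The single CCAAT box of SREBF2 begins 106 bases before the start, those of HMGCS1 begin 155 and 100 bases before it, and those of SCD 229 and 186 bases before it. RefSeq gives more than 1 start for HMGCS1. The start shown was picked because it holds more CCAAT boxes, 2 against 0 in the window of the other, which is not shown.

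The mevalonate arm has 7 genes here, and 0 were called with all libraries. All 7 had a log2 difference above 0, as did 48.8% of all tested genes. Without control replicate 3, 4 of the 7 were called higher, against 10.1% of all tested genes. ACAT2, the cytosolic thiolase that joins acetyl-CoA units (chromosome 6, 159760328 to 159779055, plus strand, GENCODE 29 on GRCh38), was at 49.5, 49.6 and 58.3 CPM in siRBM47 replicates 1 to 3, against 27.6, 21.5 and 33.9 CPM in control replicates 1 to 3. The groups did not overlap. The log2 difference was 0.92 (SE 0.21) with an adjusted p of 0.0997 by edgeR, and without control replicate 3 ACAT2 was 2.14-fold higher with an adjusted p of 0.00131. Exons of genes on the opposite strand (TCP1, SOD2 and SOD2-OT1) cover 52.3% of the exon length of ACAT2, and the library kit does not mark strand, so reads of these genes and of ACAT2 cannot be told apart there. MVK, the kinase that phosphorylates mevalonate (chromosome 12, 109573255 to 109598117, plus strand), was at 46.4, 59.0 and 58.7 CPM in siRBM47 replicates 1 to 3, against 27.6, 30.9 and 33.5 CPM in the controls. Its groups were also separate, and control replicate 3 lay close to the other controls. Its log2 difference was 0.83 (SE 0.19, adjusted p 0.0967 by edgeR), and 0.90 without control replicate 3 (adjusted p 0.00355).

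IDI1, which isomerises isopentenyl diphosphate, showed the other pattern. It was at 65.9, 43.6 and 54.0 CPM in siRBM47 replicates 1 to 3, against 26.5, 30.9 and 67.7 CPM in control replicates 1 to 3, so that control replicate 3 was the highest of the 6 libraries. The log2 difference was 0.39 (adjusted p 0.619 by edgeR), and 0.93 (adjusted p 0.00565) without control replicate 3. HMGCS1, the cytosolic HMG-CoA synthase and a well-known target of SREBF2, is given in full although chosen after its values were seen (chromosome 5, 43289395 to 43313512, minus strand). It was at 129.9, 93.7 and 116 CPM in siRBM47 replicates 1 to 3, against 27.6, 37.8 and 227 CPM in control replicates 1 to 3. The siRBM47 libraries thus lay between controls 1 and 2 on one side and control replicate 3 on the other. Its log2 difference was 0.21 with a 95% interval of -1.25 to 1.68 (adjusted p 0.904 by edgeR), and 1.79 with an interval of 1.36 to 2.22 (adjusted p 6.151e-05) without control replicate 3. The last 3 genes of the arm lay close to 0. PMVK, the next kinase, averaged 26.4 ± 7.68 CPM in siRBM47 and 24.6 ± 3.66 CPM in control libraries (SD, n = 3 each). MVD, the decarboxylase that follows, averaged 47.2 ± 8.57 CPM in siRBM47 and 45.9 ± 5.08 CPM in control libraries (SD, n = 3 each). FDPS, the farnesyl diphosphate synthase, averaged 109 ± 14.3 CPM in siRBM47 and 94.9 ± 6.28 CPM in control libraries (SD, n = 3 each).

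The step to squalene and on to lanosterol is held by 3 genes, and all 3 had control replicate 3 well above the other two controls. FDFT1, the squalene synthase that commits farnesyl diphosphate to sterols, was at 381 CPM, 397 CPM and 447 CPM in siRBM47 replicates 1 to 3, against 199, 236 and 514 CPM in control replicates 1 to 3. SQLE, the epoxidase that adds oxygen to squalene, was at 156, 134 and 127 CPM in siRBM47 replicates 1 to 3, against 85.6, 79.6 and 185 CPM in the controls. In both genes control replicate 3 was the highest library and controls 1 and 2 were the lowest. LSS, the cyclase that closes the rings (chromosome 21, 46188141 to 46228824, minus strand), was at 109, 123 and 135 CPM in siRBM47 replicates 1 to 3, against 63.2, 62.4 and 124 CPM in the controls. Here control replicate 3 lay among the siRBM47 libraries. The log2 differences were 0.37, 0.25 and 0.56 for FDFT1, SQLE and LSS, with adjusted p of 0.616, 0.734 and 0.360 by edgeR. Without control replicate 3 they were 0.91, 0.75 and 0.96, and edgeR called all 3 higher, with adjusted p of 0.00122, 0.00457 and 0.00115. That fit called 10.1% of all tested genes higher.

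**Figure D3:**
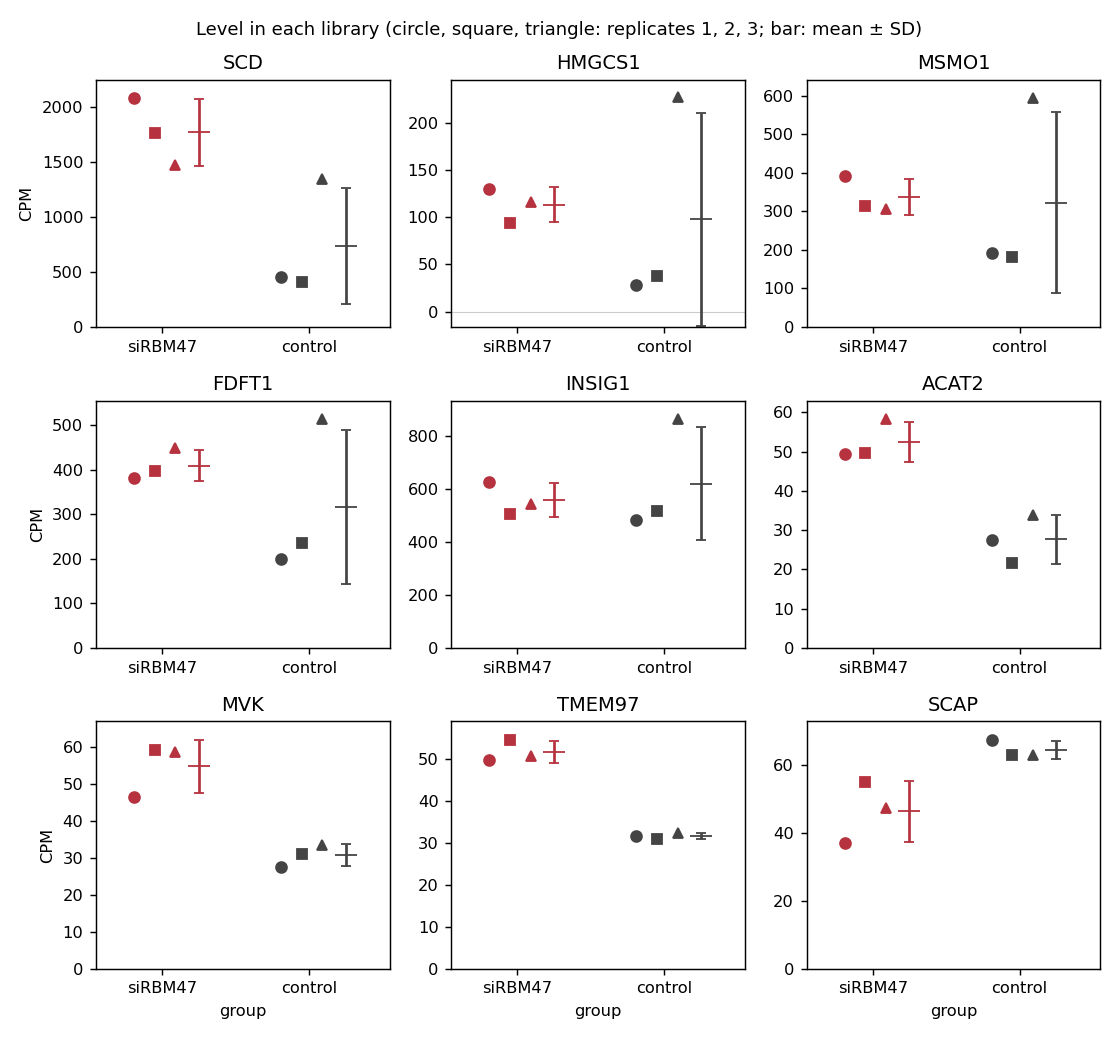
Level in CPM (vertical axes from 0, except HMGCS1, whose error bar reaches below it) of 9 genes in each library, with circles, squares and triangles for replicates 1, 2 and 3 and bars for the mean ± SD of 3 libraries, siRBM47 left of control. The control triangle stands far above the other two controls for SCD, HMGCS1, MSMO1, FDFT1 and INSIG1, and beside them for MVK, TMEM97 and SCAP.

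From lanosterol to cholesterol, 0 of 9 genes were called with all libraries. Without control replicate 3, 2 of 9 (MSMO1 and DHCR7) were called higher, against 10.1% of all tested genes. DHCR7, the last reductase before cholesterol in one branch (chromosome 11, 71428193 to 71452868, minus strand), was at 170, 192 and 166 CPM in siRBM47 replicates 1 to 3, against 121, 114 and 181 CPM in control replicates 1 to 3. Its log2 difference was 0.34 (SE 0.22, adjusted p 0.471 by edgeR), and 0.58 without control replicate 3 (adjusted p 0.0132). MSMO1, the oxidase of the C4 methyl groups and chosen after its values were seen (chromosome 4, 165327623 to 165343160, plus strand), was at 391, 315 and 305 CPM in siRBM47 replicates 1 to 3, against 192, 182 and 594 CPM in the controls. Control replicate 3 was thus the highest library, and the log2 difference was 0.06 (SE 0.41) with it and 0.85 (SE 0.16, adjusted p 0.00218) without it. EBP and LBR did not share the pattern of MSMO1. EBP, the sterol isomerase, was at 141, 147 and 135 CPM in siRBM47 replicates 1 to 3, against 139, 126 and 84.2 CPM in the controls, so that control replicate 3 was its lowest library. LBR, a nuclear envelope protein that is also a sterol reductase, was at 124, 80.2 and 91.1 CPM in siRBM47 replicates 1 to 3, against 80.8, 84.7 and 77.1 CPM in the controls, with siRBM47 replicate 1 apart from the rest. Their log2 differences were 0.28 each with all libraries, and 0.09 for EBP and 0.25 for LBR without control replicate 3.

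NSDHL and HSD17B7 act with MSMO1 in removing the C4 methyl groups. NSDHL averaged 49.6 ± 6.55 CPM in siRBM47 and 44.3 ± 3.72 CPM in control libraries (SD, n = 3 each). HSD17B7, chosen after its values were seen, was at 14.6, 16.5 and 17.9 CPM in siRBM47 replicates 1 to 3, against 12.9, 14.3 and 19.4 CPM in the controls, with controls 1 and 2 lowest and control replicate 3 highest. TM7SF2, a reductase with the same activity as LBR, averaged 4.79 ± 0.673 CPM in siRBM47 and 4.84 ± 0.619 CPM in control libraries. The log2 differences of these 3 genes were 0.16, 0.07 and -0.01. SC5D, the desaturase of the sterol B ring and also chosen after its values were seen, was at 11.8, 6.74 and 7.15 CPM in siRBM47 replicates 1 to 3, against 4.81, 5.81 and 10.4 CPM in the controls. CYP51A1, the lanosterol demethylase, likewise chosen, was barely counted, with 11, 20 and 32 reads in siRBM47 replicates 1 to 3, against 6, 16 and 65 reads in control replicates 1 to 3. In GENCODE 29, exons of another locus on the same strand, AC000120.2, cover 79.4% of its exon length, so its reads may be split or dropped by the counting and its level is uncertain.

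Of the 4 genes that control the pathway, 0 were called with or without control replicate 3. Without it, 10.1% of all tested genes were called higher and 11.3% lower. SCAP, the escort of the precursor proteins (chromosome 3, 47413694 to 47477126, minus strand), was at 37.0, 55.0 and 47.3 CPM in siRBM47 replicates 1 to 3, against 67.4, 62.8 and 63.1 CPM in control replicates 1 to 3. All 3 siRBM47 libraries lay below all controls, and the controls were close to each other. The log2 difference was -0.47 (SE 0.20) with an adjusted p of 0.278 by edgeR, and -0.49 with an adjusted p of 0.0701 without control replicate 3. SREBF1, whose products favour fatty acid genes, was at 81.4, 120 and 90.2 CPM in siRBM47 replicates 1 to 3, against 80.2, 71.2 and 77.3 CPM in the controls. The groups were separate but almost touched, and the log2 difference was 0.35 (SE 0.20, adjusted p 0.427 by edgeR), and 0.36 (adjusted p 0.173) without control replicate 3. SREBF2, whose product favours cholesterol genes and which was chosen after its values were seen, was at 198, 249 and 228 CPM in siRBM47 replicates 1 to 3, against 175, 179 and 269 CPM in the controls. It shared the pattern of FDFT1, SQLE and MSMO1, with controls 1 and 2 lowest and control replicate 3 highest. Not all enzymes did, and ACAT2, MVK, LSS, DHCR7, EBP and LBR were among those that lacked it. The log2 difference of SREBF2 was 0.12 and, without control replicate 3, 0.35 (adjusted p 0.113 by edgeR). INSIG1, the retention protein and itself a target of the pathway, was at 627, 504 and 544 CPM in siRBM47 replicates 1 to 3, against 482, 516 and 865 CPM in the controls. The siRBM47 libraries overlapped controls 1 and 2 here, and the log2 difference was -0.15, or 0.16 without control replicate 3.

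Among the 5 genes of sterol transport, receptor turnover and efflux, 4 were tested and 3 were called higher without control replicate 3. The share of all tested genes called higher in that fit was 10.1%. TMEM97, a membrane protein that binds the cholesterol exporter NPC1 (chromosome 17, 28319095 to 28328685, plus strand), had libraries close to each other within groups and a gap between them. It was at 49.6, 54.5 and 50.5 CPM in siRBM47 replicates 1 to 3, against 31.5, 30.9 and 32.3 CPM in control replicates 1 to 3. The log2 difference was 0.71 (SE 0.17, adjusted p 0.106 by edgeR), and 0.72 (adjusted p 0.00761) without control replicate 3. MYLIP, the ligase that marks lipoprotein receptors for degradation, was at 8.01, 5.43 and 5.81 CPM in siRBM47 replicates 1 to 3, against 2.78, 2.65 and 8.36 CPM in the controls. ABCA1, the pump that loads cholesterol on apolipoproteins, was at 66.0, 35.2 and 35.6 CPM in siRBM47 replicates 1 to 3, against 28.8, 27.7 and 53.5 CPM in the controls. All 4 tested genes of the group had controls 1 and 2 as their lowest libraries. So did 4 of 7 genes of the mevalonate arm, 3 of 3 from squalene to lanosterol and 4 of 9 from there to cholesterol. Among the genes that control the pathway it was 1 of 4, and among those of fatty acids 2 of 4. The share over all tested genes was not counted. The looser rule of all 3 siRBM47 libraries above controls 1 and 2 held for 27.1% of them. In ABCA1 siRBM47 replicate 1 was highest. MYLIP had a log2 difference of 0.47 (adjusted p 0.641 by edgeR), and of 1.24 (adjusted p 0.00916) without control replicate 3. ABCA1 had one of 0.31 (adjusted p 0.680 by edgeR), and of 0.69 (adjusted p 0.0652) without it. STARD4, a soluble sterol carrier chosen after its values were seen, was at 76.6, 49.6 and 50.9 CPM in siRBM47 replicates 1 to 3, against 34.3, 38.7 and 108 CPM in the controls. Its log2 difference was -0.03 with all libraries and 0.69 without control replicate 3, where edgeR gave an adjusted p of 0.0291. ABCG1, a second efflux pump, had 1 read in siRBM47 replicate 2 and 0 in the other 5 libraries, and was not tested.

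SCD, the desaturase that makes oleate from stearate (chromosome 10, 100347124 to 100364834, plus strand), had the largest log2 difference of the 31 genes. It was at 2081, 1759.8 and 1473 CPM in siRBM47 replicates 1 to 3, against 458, 412 and 1342 CPM in control replicates 1 to 3. Every siRBM47 library lay above every control library, although control replicate 3 came within reach of siRBM47 replicate 3. The means were 1771 ± 304 CPM in siRBM47 and 737 ± 524 CPM in control libraries (SD, n = 3 each). The log2 difference was 1.26 (SE 0.42, adjusted p 0.191 by edgeR, 0.0382 by DESeq2), and 2.03 (SE 0.17, adjusted p 8.155e-06 by edgeR) without control replicate 3; over all alternatives the adjusted p reached 0.472. FADS2, the delta-6 desaturase of polyunsaturated fatty acids, was at 10.7, 16.0 and 13.2 CPM in siRBM47 replicates 1 to 3, against 6.70, 5.81 and 14.3 CPM in the controls. Its log2 difference was 0.57 (adjusted p 0.463 by edgeR) with all libraries and 1.09 (adjusted p 0.00631) without control replicate 3. FASN, the synthase that builds palmitate, ran the other way. It was at 95.6, 130.4 and 102 CPM in siRBM47 replicates 1 to 3, against 130.6, 127 and 158 CPM in the controls, with a log2 difference of -0.34 (adjusted p 0.429 by edgeR), and of -0.23 without control replicate 3. FADS1, the delta-5 desaturase that neighbours FADS2, averaged 109 ± 10.9 CPM in siRBM47 and 111 ± 3.76 CPM in control libraries (SD, n = 3 each), a log2 difference of -0.03 with a 95% interval of -0.41 to 0.35.

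The excess over controls 1 and 2 was not divided alike between control replicate 3 and the siRBM47 libraries. HMGCS1 was 1.78 higher in the mean of the siRBM47 libraries and 2.80 higher in control replicate 3, on the log2(CPM + 0.5) scale. SCD was 2.01 higher in siRBM47 libraries and 1.63 higher in control replicate 3, and MSMO1 was 0.84 higher in siRBM47 libraries and 1.66 higher in control replicate 3. In MVK, ACAT2 and TMEM97 most of the excess was in siRBM47 libraries, at 0.89, 1.09 and 0.71, against 0.20, 0.47 and 0.05 in control replicate 3. The differences between control replicate 3 and the other controls rest on single libraries and were not tested.

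Levels between genes were compared in FPKM, which divides by gene length. SCD was the most abundant in siRBM47 libraries at 328 ± 56.9 FPKM, and stood second in control libraries at 136 ± 95.7 FPKM (SD, n = 3 each). INSIG1 averaged 152 FPKM in siRBM47 and 168 FPKM in control libraries, and MSMO1 averaged 116 FPKM in siRBM47 and 110.0 FPKM in control libraries. FDFT1 followed at 78.1 FPKM in siRBM47 and 60.0 FPKM in control libraries. In each of the 6 libraries MSMO1 lay below SCD and INSIG1. SCD lay above INSIG1 in 3 of 3 siRBM47 libraries and in 1 of 3 control libraries, so the order of these genes was mixed in the controls. At the low end FADS2 averaged 1.20 FPKM in siRBM47 and 0.801 FPKM in control libraries, and CYP51A1 averaged 0.288 FPKM in siRBM47 and 0.386 FPKM in control libraries. In bulk RNA, fewer cells with a transcript and less of it per cell cannot be told apart.

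**Figure D4:**
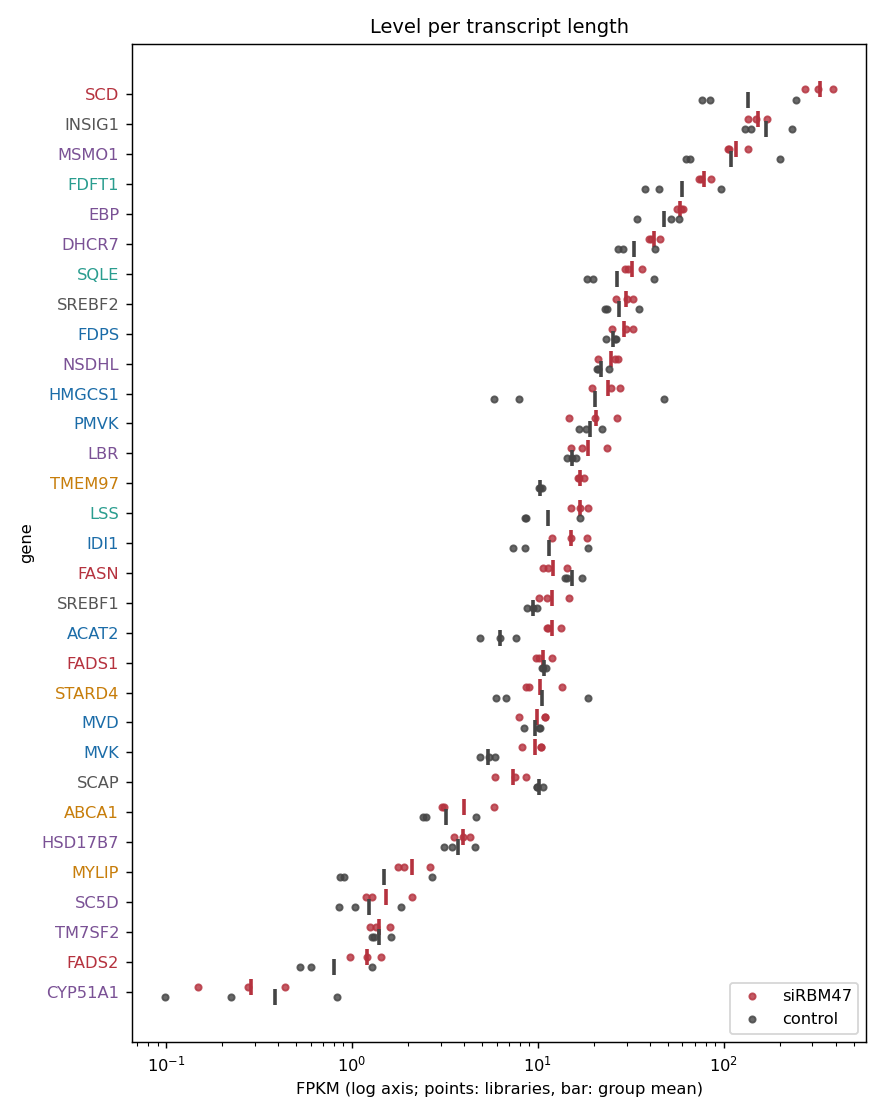
FPKM (horizontal log axis) of the 31 tested genes in each library (points, siRBM47 above control) with group means (bars), ordered by the siRBM47 mean. Levels run from about 0.288 FPKM for CYP51A1 to 328 FPKM for SCD in siRBM47 libraries, and the control points of HMGCS1 are widely scattered.

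A further 60 genes of sterol and fatty acid metabolism were listed from their roles, of which 59 were found and 55 tested. With all libraries 0 were called by edgeR, with 7 higher and 4 lower at an unadjusted p under 0.05, where 7.15% and 8.94% of all tested genes were higher and lower. DESeq2 called 1 higher and 2 lower, where it called 1.83% of its genes higher and 2.68% lower. Their log2 differences were split evenly, with 28 above 0 and 27 below, and without control replicate 3 edgeR called 10 higher and 5 lower, where 10.1% of all genes were called higher and 11.3% lower. The gene with the smallest p was NPC1, which exports cholesterol from lysosomes. It was at 149, 139.6 and 107 CPM in siRBM47 replicates 1 to 3, against 264, 265 and 219.7 CPM in control replicates 1 to 3, so all siRBM47 libraries lay below all controls. Its log2 difference was -0.92 (SE 0.19, adjusted p 0.0838 by edgeR; 0.000912 without control replicate 3). ERG28, a scaffold of the C4 demethylation enzymes, was at 257, 231 and 224 CPM in siRBM47 replicates 1 to 3, against 141, 124 and 152 CPM in the controls (log2 difference 0.77, SE 0.17, adjusted p 0.0967 by edgeR, 0.00179 without control replicate 3). GRAMD1A and GRAMD1B, which carry cholesterol from the plasma membrane to the endoplasmic reticulum, had log2 differences of -0.67 and -0.89 (adjusted p 0.149 and 0.136 by edgeR, 0.0102 and 0.00793 without control replicate 3). FNTB, a farnesyltransferase subunit, had a log2 difference of 0.74 (adjusted p 0.175 by edgeR, 0.0515 without control replicate 3), and a readthrough gene on the same strand covers 42.1% of its exon length, so its level is uncertain. Of the 55 genes, 10 had every siRBM47 library above every control library and 8 had every one below, which held for 11.6% and 11% of all tested genes. The 5 genes named, taken by their small p, are among them.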

How the data were processed

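RNA of 6 libraries of U87 cells was analysed, 3 labelled siRBM47 and 3 control, grouped and numbered by their titles. Per the submitters' processing notes, reads were handled with HISAT2 2.0.5 and featureCounts 1.5.0-p3 on hg38. Which annotation release, strand setting and filters applied was not given in the sources used here. Per the labels' protocols the kit was NEBNext Ultra RNA, which does not mark strand. All tests used the counts per gene as deposited, which are whole numbers. The deposited FPKM of the authors were used only to compare levels between genes. A name table supplied symbols for all but 5909 identifiers. Positions came from GENCODE 29 (GRCh38) and promoters from RefSeq (GRCh38.p14).

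Genes kept by filterByExpr (minimum count of 10) were tested with edgeR 4.0.16 (quasi-likelihood test, TMM factors) under R 4.3.3, with Benjamini-Hochberg adjustment over all 14578 genes and a threshold of 0.05. Standard errors are the absolute log2 difference divided by the root of F. CPM use TMM-scaled library sizes. Chi-square tests of the counts within groups gave 10.7 or more per degree of freedom for each pair of libraries, so none was counted as a repeat. Totals ran from 15575297 to 18128549 counts, and intervals cover only the spread between these libraries. On simulated counts for this comparison (14330 genes tested), the edgeR step recovered 18 of 98 genes changed 2-fold and 80 of 100 changed 4-fold. Of 102 calls made, 4 fell on genes left unchanged. Genes were drawn independently there, with no library apart from its group as control replicate 3 is. These rates may therefore not hold for the real counts. Alternatives were RLE and upper-quartile factors, DESeq2 1.42.0, limma-voom (limma 3.58.1), a minimum count of 50, no filter, leaving out each library, and a replicate block.

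The genes and lists were chosen with earlier results of these data known. Each library's values are given for the 3 genes of a role with the smallest p, for genes whose groups do not overlap, and for 7 more named as chosen after their values were seen. In all 7, control replicate 3 lay above controls 1 and 2, so their values do not show how general that was. Of the further pathway genes, those among the 6 with the smallest p are named, except 1 that is not reported here.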

Additional observations from a re-analysis of the deposited data

How the results depend on the processing

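The call of no gene among the 31 depended on the test and on 1 library. With all libraries edgeR called 12 genes higher and 20 lower; DESeq2 called 261 higher and 383 lower, of which 4 higher were among the 31, and edgeR with no filter called 326 and 478, of which 3 higher were among them. A minimum count of 50 gave 19 higher. Of the further pathway genes DESeq2 called 1 higher and 2 lower, and no filter 2 higher and 1 lower. With a library left out, genes called ran from 0 to 1473 higher and from 0 to 1644 lower, members from 0 to 14 higher, further pathway genes from 0 to 10 higher and 0 to 5 lower, and the members' median from 0.14 to 0.69. The upper ends all come from leaving out control replicate 3. Leaving out any of the siRBM47 libraries gave 0 genes in both directions, while without control replicate 1 there were 6 higher and 13 lower, and without control replicate 2 there were 4 and 8. The cause was not tested.

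Of 402 log2 differences of the 31 genes under the alternatives, 357 kept their direction and side of the threshold, 21 passed it newly and 25 changed sign, with STARD4 without control replicate 3 in both of the last counts. These 25 belong to 12 genes, where edgeR called 0 of the 31 with all libraries. Of the 12, HMGCS1, MSMO1 and STARD4 were called higher without control replicate 3. With each library left out, the log2 difference ran from -0.0513 to 0.69 for ABCA1, -0.88 to 0.80 for CYP51A1, -0.11 to 0.0251 for FADS1, -0.21 to 1.79 for HMGCS1, -0.0352 to 0.26 for HSD17B7, -0.29 to 0.16 for INSIG1, -0.21 to 0.85 for MSMO1, -0.0436 to 0.18 for MVD, -0.12 to 0.30 for PMVK, -0.0147 to 0.69 for SC5D, -0.30 to 0.69 for STARD4 and -0.11 to 0.10 for TM7SF2. STARD4 was at 0.14 with limma-voom and 0.15 with the replicate block.

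Same-numbered libraries correlated at -0.07, 0.17 and 0.10 in their deviations from the group means, and not every library correlated best with its own number. Deviations from a mean of 3 libraries depend on each other, and control replicate 3 stands apart. These values therefore cannot decide whether the numbers pair the samples. With the replicate block edgeR called 0 of the 31 genes. ABCG1, with 1 read in all, could not be tested at this depth.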
